A study of Mus musculus with 22 samples.

Results

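The comparison set the 6 cortex libraries of mice that carried the 5xFAD transgenes against the 6 libraries of mice of the same crosses that did not. The carriers were 6 of the 22 libraries of the study. They were chosen by genotype label alone, and comprised 3 5xFAD and 3 dTg libraries. The non-carriers comprised 3 wild-type (WT) and 3 N40K libraries. All 12 libraries were from mice 6 months old that came from matings of an N40K-Tg +/- with a FAD +/- parent. N40K mice express an amino-terminal piece of the Snrnp70 protein, a part of the U1 small nuclear ribonucleoprotein (U1 snRNP), which recognises 5′ splice sites, and dTg mice carry both N40K and 5xFAD. N40K was therefore present in 3 carriers and 3 non-carriers and entered each test as a second factor. The promoter of the N40K transgene, the sex of the mice and the number of mice in a library are not given in the sources used here. The other 10 libraries, of 12-month-old mice with or without mutant human tau, were used only to set the same genes side by side.

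5xFAD mice express human transgenes with familial Alzheimer's disease mutations under the neuronal Thy1 promoter, and amyloid deposits form in their brains. Microglia, the resident phagocytes of the brain, gather at such deposits and switch on lysosomal, lipid-handling and antigen-presenting genes, and a part of them an interferon response. Splicing removes introns from a primary transcript, and a transcript caught before or without that removal adds intron signal.

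The measurement was the Sd score that the authors deposited, 1 linear ratio per gene and library. It was read as a measure of splicing deficiency that grows with the unspliced share of a gene's signal. Scores were rounded to 3 decimals, so 1 step is 0.001. Transcript levels were not analysed here. In bulk tissue, fewer cells of a type and less RNA per cell cannot be told apart, and a score does not say how much transcript was present. A score can move with the unspliced or the spliced part, and which of them moved was not tested. Read depth is unknown, so no counting error is given. The errors below are standard errors from the spread between libraries, moderated by limma towards the spread typical of all genes. The labels name the mice as littermates and number the replicates. P-values set each difference against the spread between these libraries, whose number of mice is not given, and those of limma use the moderated errors.

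The table held 15705 genes, of which 9640 (61.4%) had a mean score of at least 0.02 over the 12 libraries. The threshold was used because 1 step is a large part of a lower score. Among the genes described below, Lpxn lay just above it with a mean of 0.0215, and Lgals3bp just under it with 0.0185. The libraries were alike, with a Pearson's r of 0.98 to 0.99 across genes in each of the 66 pairs. The median score of a carrier library lay between 0.029 and 0.035 and that of a non-carrier library between 0.029 and 0.036. The difference was 0.01 on the log2 scale (two-sided exact permutation test within N40K status, 400 regroupings, p = 0.82). Each library was then centred on its own median. All 7 cortical marker genes looked up were in the table, as were 3 of 4 markers of striatum, 1 of 3 of cerebellum, 3 of 5 of blood, 4 of 9 of choroid plexus and meninges and 3 of 8 of tissues outside the brain. A gene's presence there says nothing of its level. The loci related to the transgenes had no difference that passed the test: the mouse App score was 0 in each of the 12 libraries, Thy1 differed by 0.02 and Snrnp70 by -0.0028. These do not check the genotype, since mouse loci were scored. Tsix, the antisense partner of Xist, split the libraries by replicate number and not by genotype. It scored 0.115, 0.111, 0.169 and 0.110 in replicate 1 of WT, N40K, 5xFAD and dTg and 0.721 to 0.911 in the other 8 libraries.

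Most genes with a changed score in 5xFAD carriers had a lower one. Of the 19 lower genes, 8 were among the 118 measured in the lists for microglia, immune receptors, lysosomes, antigen presentation and the interferon response. That is 6.78% of the 118, beside 0.121% of all genes. The other 11 were in none of these lists, which were chosen with results of these data known. The score fell in 19 genes (0.121% of all 15705) and rose in 3 (0.0191%), together 22 (0.14%), at an adjusted p under 0.05. Among the 9640 genes with a mean of at least 0.02 it fell in 14 (0.145%) and rose in 2 (0.0207%), together 16 (0.166%). The log2 change of the lower genes ran from -1.12 to -0.33, which is a fold of 0.459 to 0.795. The test was limma on log2(score + 0.002) with a term for 5xFAD and one for N40K, and folds are on that scale. At an unadjusted p under 0.05 there were 557 lower (3.55%) and 514 higher genes (3.27%). In 20 of the 22 genes the centred scores of the 6 carriers and the 6 non-carriers did not overlap. That held for 59 genes of the table (0.376%), 42 with lower (0.267%) and 17 with higher carriers (0.108%), and for 40 of those with a mean of at least 0.02 (0.415%). Such separation was a condition of being named among the largest changes. This applies below to Cd180, Cxcl16, Cd80, Hvcn1, Usp18, Rnf213, Parp9 and Hapln3, whose separation gives no support of its own.

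**Figure D1:**
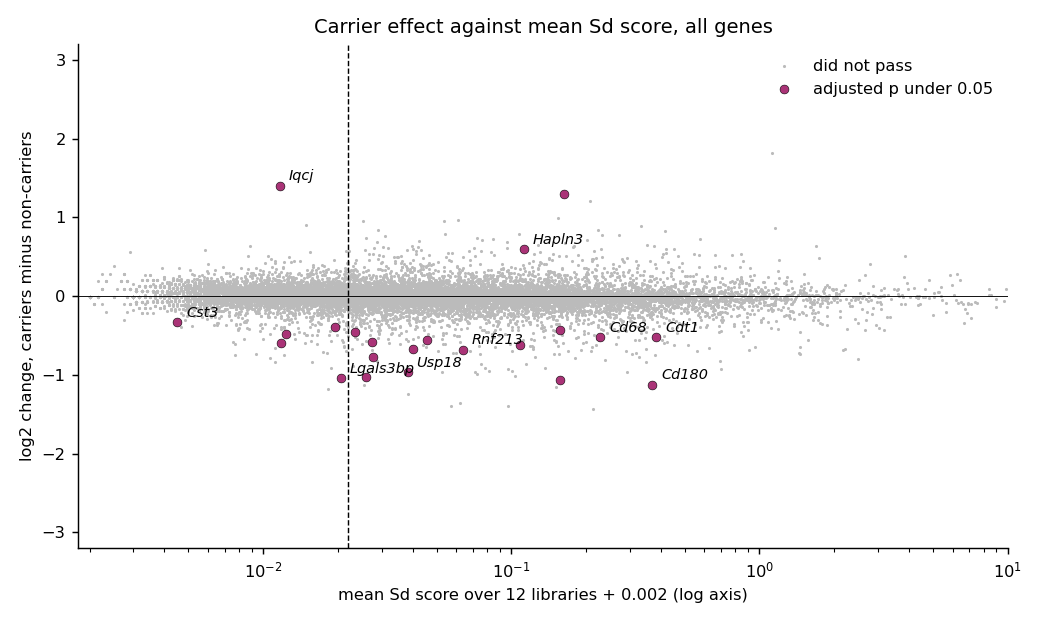
Change in Sd score of each gene in 5xFAD carriers against non-carriers (log2 of score plus 0.002, centred, vertical axis) by its mean score over the 12 libraries (log scale, horizontal axis), with the genes that passed the limma test coloured and a dashed line at the 0.02 mean. The 19 lower genes reached -1.12, the 3 higher genes lay apart above them, and 63 genes fell outside the plotted range.

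Cd180 and Cxcl16 had the largest falls of the 19. Of the genes in this paragraph and the next, Cd180 alone was in one of the gene lists, that for immune receptors, and the others are described here for their known roles. Cd180, a Toll-like receptor homologue that tunes the response of immune cells to bacterial lipids, scored 0.174, 0.224 and 0.351 as the lowest, median and highest of the 6 carriers and 0.459, 0.49 and 0.551 in the 6 non-carriers. Every carrier lay below every non-carrier. The difference was -1.12 ± 0.13 (log2, SE; 95% interval -1.42 to -0.83; limma adjusted p = 0.0153), a fold of 0.459. Cxcl16, a membrane-bound chemokine that also serves as a scavenger receptor, ranged from 0.077 to 0.134 with a median of 0.0905 in carriers. Its non-carriers ranged from 0.149 to 0.287 with a median of 0.212, with no overlap (-1.07 ± 0.16, adjusted p = 0.0383).

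Cd80, a ligand with which antigen-presenting cells costimulate T cells, ranged from 0.077 to 0.097 (median 0.082) in carriers against 0.11 to 0.155 (median 0.127) in non-carriers. The groups were apart, and the difference was -0.62 ± 0.08 (adjusted p = 0.0158). Hvcn1, the voltage-gated proton channel of phagocytes, ranged from 0.015 to 0.023 (median 0.0205) against 0.027 to 0.034 (median 0.0305), again without overlap (-0.59 ± 0.09, adjusted p = 0.041). Rasal3 and Lpxn were outside the rule for named genes and chosen after their values were seen. Rasal3, a Ras GTPase-activating protein of blood-derived cells, ranged from 0.128 to 0.145 in carriers and from 0.15 to 0.2 in non-carriers (-0.43 ± 0.06, adjusted p = 0.0234). Its raw scores did not overlap, but its centred ones did. Lpxn, an adhesion adaptor of leukocytes, ranged from 0.016 to 0.021 against 0.022 to 0.029 (-0.46 ± 0.06, adjusted p = 0.0158).

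Of 21 listed interferon-response genes, 3 fell (Usp18, Rnf213 and Lgals3bp). Usp18 removes the ubiquitin-like protein Isg15 from its targets and damps signalling from the type I interferon receptor. It scored 0.021, 0.023 and 0.029 as lowest, median and highest carrier and 0.037, 0.05 and 0.056 in non-carriers. All 6 carriers lay below all 6 non-carriers, and the fold was 0.511 (-0.97 ± 0.10, 95% interval -1.20 to -0.74, adjusted p = 0.0153). Rnf213, a very large ubiquitin ligase induced by interferon, ranged from 0.039 to 0.059 (median 0.044) against 0.058 to 0.088 (median 0.078), a difference of -0.68 ± 0.09 (adjusted p = 0.0158). Its raw scores overlapped by 1 step, and its centred ones did not overlap. Parp9, which was in no list and works with the ubiquitin ligase Dtx3l in antiviral responses, ranged from 0.031 to 0.038 (median 0.0345) against 0.045 to 0.06 (median 0.0525; -0.56 ± 0.09, adjusted p = 0.0446). Lgals3bp, a secreted glycoprotein that binds galectins and is induced by interferon, was named after its values were seen. It ranged from 0.008 to 0.015 in carriers and from 0.017 to 0.035 in non-carriers (-1.04 ± 0.12, fold 0.485, adjusted p = 0.0153).

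Of the genes listed as lysosomal, Gusb alone fell, of 29 measured. It is described here with genes of other lists, or of none, whose products act in lysosomes or on their enzymes. Cd68, a glycoprotein of phagocyte lysosomes and a usual marker of activated microglia, scored 0.172, 0.177 and 0.212 as lowest, median and highest carrier and 0.245, 0.26 and 0.293 in non-carriers. No carrier reached the lowest non-carrier (-0.52 ± 0.08, fold 0.697, adjusted p = 0.0358). Gusb, the lysosomal enzyme beta-glucuronidase, ranged from 0.023 to 0.039 (median 0.0275) against 0.038 to 0.051 (median 0.048; -0.67 ± 0.11, adjusted p = 0.0479). The overlap came from 5xFAD replicate 1 at 0.039, while the other 5 carriers lay between 0.023 and 0.033. Ctsz, Tcn2 and Cst3, with scores at or below a mean of 0.02, were named after their values were seen. Ctsz, a lysosomal cathepsin, ranged from 0.007 to 0.01 against 0.011 to 0.014 (-0.48 ± 0.06, adjusted p = 0.0158). Tcn2 encodes transcobalamin, the vitamin B12 carrier that delivers its cargo to lysosomes. It ranged from 0.013 to 0.017 against 0.019 to 0.021 (-0.40 ± 0.06, adjusted p = 0.041). Cst3, the secreted inhibitor of cathepsins, was listed at 0.002 in all carriers and at 0.003 in all non-carriers, which is 1 step of the last decimal (-0.33 ± 0.05, adjusted p = 0.0426). Its scores had no spread within either group, so its error came from the library medians used for centring and from the moderation.

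The score of Cdt1, which licenses DNA replication origins, also fell. It ranged from 0.283 to 0.346 in carriers and from 0.387 to 0.534 in non-carriers (-0.52 ± 0.08, adjusted p = 0.0446), and was named after its values were seen. Another lower gene was a predicted antisense RNA. Hapln3, a link protein that ties proteoglycans to hyaluronan in the extracellular matrix, was the named gene with a higher score. It scored 0.11, 0.13 and 0.174 as lowest, median and highest carrier against 0.067, 0.09 and 0.1. Every carrier exceeded every non-carrier, by 0.60 ± 0.09 on the log2 scale (95% interval 0.40 to 0.79, fold 1.51, adjusted p = 0.0297). The other higher genes were 1 predicted gene and Iqcj, an IQ-motif gene named after its values were seen. Iqcj lay below the 0.02 mean, with 0.01 to 0.019 in carriers against 0.002 to 0.007 in non-carriers (1.40 ± 0.19, fold 2.64, adjusted p = 0.0158).

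**Figure D2:**
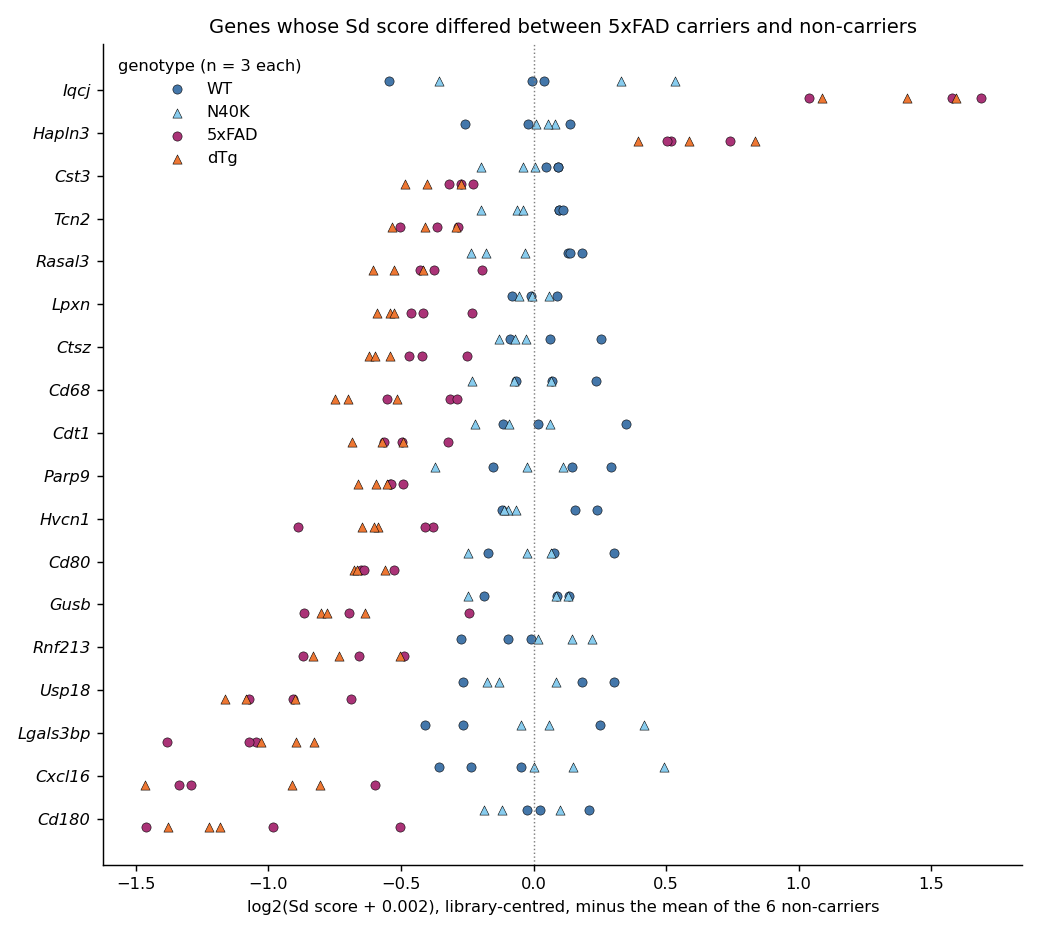
Centred log2(Sd score + 0.002) of the named genes that passed, in each of the 12 libraries, set relative to the mean of the 6 non-carriers (horizontal axis, 1 point a library, colour and shape by genotype). All carrier points lie left of 0 in the lower genes and right of 0 in Hapln3 and Iqcj, and the 2 groups of points overlap in Gusb and Rasal3.

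The carriers were not equally far from the non-carriers. 5xFAD replicate 1 was the highest carrier in 10 of the 19 lower genes and the lowest in 0. dTg replicate 2 was the lowest carrier in 6 and 5xFAD replicate 2 in 5. Signs did not change, and the number of genes that passed did. Each of the 22 genes kept its sign under every alternative it was fitted in. They were called in these same libraries, and in 20 of them the groups did not overlap, so the kept signs give no independent support. Usp18, Lgals3bp and Cd180 passed without each single library in turn, and none of the other 17 genes with a symbol of a known gene did. Without N40K replicate 1 and dTg replicate 2 together, Cd180 did not pass (limma adjusted p = 0.0708), while Usp18 and Lgals3bp did. The count of 22 became 4 without N40K replicate 3, 5 without 5xFAD replicate 2, 8 without WT replicate 1, 10 without dTg replicate 2 and 11 without WT replicate 2. It became 12 without N40K replicate 2, 5xFAD replicate 3 or dTg replicate 3 and 14 without dTg replicate 1. With libraries not centred, 6 genes passed, 6 of them lower and 0 higher, against 19 lower and 3 higher with centring. Because Tsix followed the replicate number, a term for replicate 1 against 2 and 3 was also fitted, chosen after those values were seen. It left 13 calls, all among the 22, and Cxcl16 (adjusted p = 0.0688), Cd68 (0.0688), Hvcn1 (0.0533), Parp9 (0.0764), Gusb (0.081), Tcn2, Cdt1 and Cst3 (0.0764 each) no longer passed.

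The change was alike in direction with and without N40K. In mice without N40K (5xFAD minus WT) and in mice with it (dTg minus N40K), each of the 22 genes had the same sign and an unadjusted p under 0.05. A negative change in both was found in 25% of all genes. These are the same libraries that chose the genes, and give no independent support. Cd180 differed by -1.05 without and -1.19 with N40K, Usp18 by -0.96 and -0.98, Cxcl16 by -0.86 and -1.27, and Rnf213 by -0.54 and -0.82. Cd68 differed by -0.47 and -0.57 and Hapln3 by 0.64 and 0.56. The interaction of 5xFAD and N40K tested whether these pairs differ. No gene of the table passed it (limma, 0 genes, with 588 or 3.74% at an unadjusted p under 0.05). The smallest unadjusted interaction p among the 22 was 0.129, for Lpxn. The 22 were chosen by a fit without an interaction term, which disfavours genes that have one, so this value gives no independent support. With 3 libraries a group, the contrasts within each background also called 0 genes. At an unadjusted p under 0.05 there were 738 genes (4.7%) without N40K and 927 (5.9%) with it. In the same additive fit, N40K itself changed the score of 1526 genes (9.72%). Of the 22, it was Rasal3 alone that also had an N40K effect with an adjusted p under 0.05 (-0.24, adjusted p = 0.0319).

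**Figure D3:**
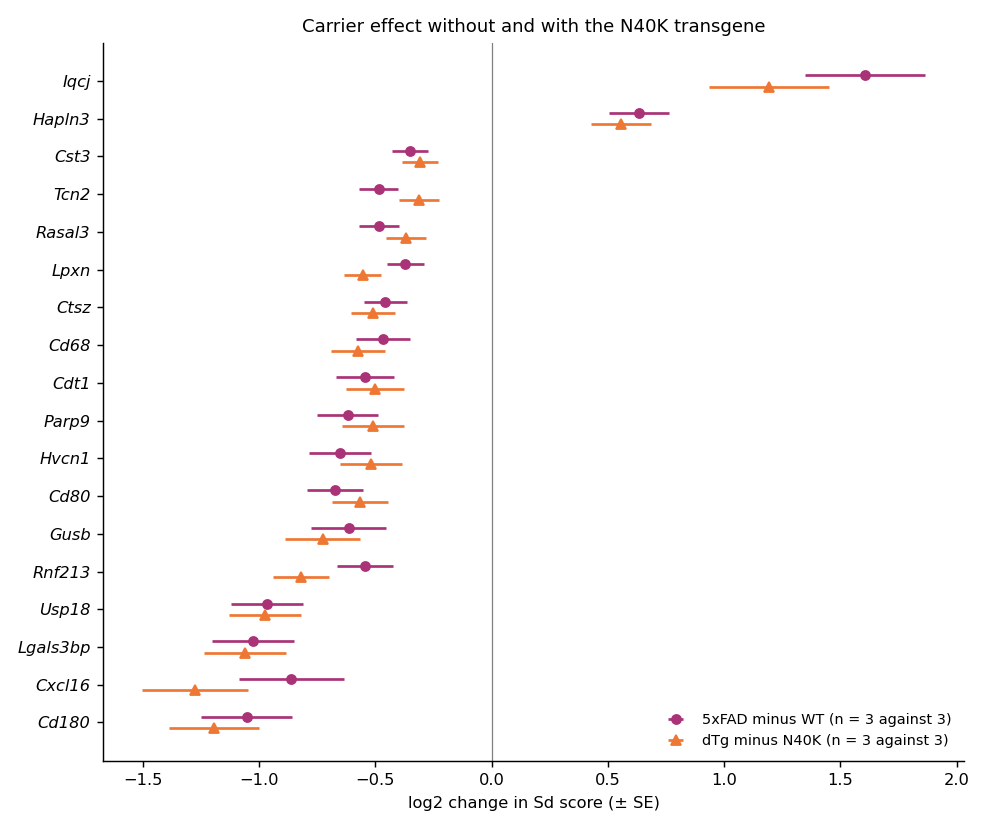
Carrier effect on the Sd score of the named genes that passed (log2, horizontal axis, 1 gene a row) in mice without N40K (5xFAD minus WT) and with it (dTg minus N40K), with standard errors. Both effects lie on the same side of 0 in every gene shown, for example -1.05 and -1.19 for Cd180.

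The lists of genes by cell type and function place these calls among their relatives. Their counts and medians cover all measured genes, also those with a mean under 0.02. Some members that did not pass are given as examples, outside the rule for named genes. Across all genes, 7857 of 15705 had a negative change and the median change was -7.24e-05. Of the 21 interferon-response genes measured, 3 fell (Usp18, Lgals3bp, Rnf213) and 0 rose, 18 had a negative change and the median was -0.23. Among those that did not pass, Trim30a differed by -0.87 (adjusted p = 0.125), Isg15 by -0.87 (0.365) and Dhx58 by -0.49 (0.105). On the other side, Cmpk2 differed by 0.24 (adjusted p = 0.898), Mx1 by 0.18 (0.915) and Xaf1 by 0.09 (0.944). Of 20 complement and immune receptor genes, 1 fell (Cd180), 17 were negative and the median was -0.23. Cd84, a receptor of the SLAM family, differed by -0.64 without passing (adjusted p = 0.146). Of 13 antigen presentation genes, 0 passed, 11 were negative and the median was -0.20. Tapbp, which helps to load peptides on class I molecules, had the smallest p among the members with a mean of at least 0.02. It differed by -0.22 (adjusted p = 0.718), with -0.44 in mice without N40K and -0.00139 in mice with it.

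Of 23 genes that amyloid-associated microglia raise, 2 fell (Cd68, Ctsz), 19 were negative and the median was -0.10. Trem2, the lipid receptor of that state, differed by -0.26 (adjusted p = 0.702), Itgax by -0.72 (0.794) and Grn by -0.20 (0.432), and none of these passed. The members with a positive change were Axl (0.13), Ank (0.08), Csf1 (0.04) and Ctsb (0.04), and Apoe differed by -0.04. Of 13 homeostatic microglial genes, 1 fell, 9 were negative and the median was -0.08. Only 3 of them had a mean of at least 0.02, of which 1 was negative, and the median of these was 0.11. Aif1, a cytoplasmic marker of microglia also called Iba1, differed by -0.19 (adjusted p = 0.794). Mertk, a receptor for engulfing dead cells, lay on the other side at 0.30 (adjusted p = 0.0581). Of 29 lysosomal genes, 1 fell (Gusb), 21 were negative and the median was -0.04. Hexa differed by -0.48 (adjusted p = 0.0824) and Npc2, a cholesterol carrier of the lysosome, by -0.49 (0.115), without passing. These 6 lists hold 118 measured genes, of which 8 fell (6.78%), beside 0.121% of all genes. The lists were chosen with results of these data known, and 11 of the 19 lower genes were in none of them. Several defining microglial genes, among them Tmem119, Cx3cr1, Tyrobp and C1qa, had no score and were not analysed here. The amount of microglial RNA in each library was not measured, and its part in these scores was not tested.

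The lists for neurons and for glia other than microglia had 0 genes that passed. Of 15 reactive astrocyte genes, 11 were negative with a median of -0.18, and Gfap, the intermediate filament that marks reactive astrocytes, differed by -0.37 (adjusted p = 0.181). The 14 resting astrocyte genes had a median of -0.02. Sox9, a glial transcription factor, differed by 0.38 (adjusted p = 0.819), with 0.84 in mice without N40K and -0.08 in mice with it. The medians were -0.01 for 11 oligodendrocyte genes and 0.02 for 8 of their precursors. Among neuronal lists, the medians were 0.03 for 24 glutamatergic synapse genes, 0.03 for 26 GABAergic genes and 0.05 for 26 voltage-gated ion channel genes. Of these channels 6 were negative. Grin1, the obligatory NMDA receptor subunit, differed by 0.07 (adjusted p = 0.906). Of 10 immediate early genes, which neurons switch on with activity, 1 was negative and the median was 0.19. Egr2 differed by 0.57 (adjusted p = 0.741), with 0.9985 in mice without N40K and 0.14 in mice with it.

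The medians of splicing genes were close to that of all genes. Of 28 U1 snRNP and core spliceosome genes, 15 were negative, 0 passed and the median was -0.00212. Of 29 SR protein, CLK kinase and hnRNP genes, 10 were negative, 0 passed and the median was 0.00937. Tra2a, an SR-like splicing regulator, differed by 0.08 (adjusted p = 0.906). All 16 cholesterol synthesis and transport genes measured had a negative change, with a median of -0.10. None passed (5 at an unadjusted p under 0.05), and Sqle, an early enzyme of the sterol branch, differed by -0.14 (adjusted p = 0.621). Of 29 Alzheimer risk and amyloid processing genes, 21 were negative, 0 passed and the median was -0.04. Adam17, an alpha-secretase, differed by -0.20 (adjusted p = 0.400).

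**Figure D4:**
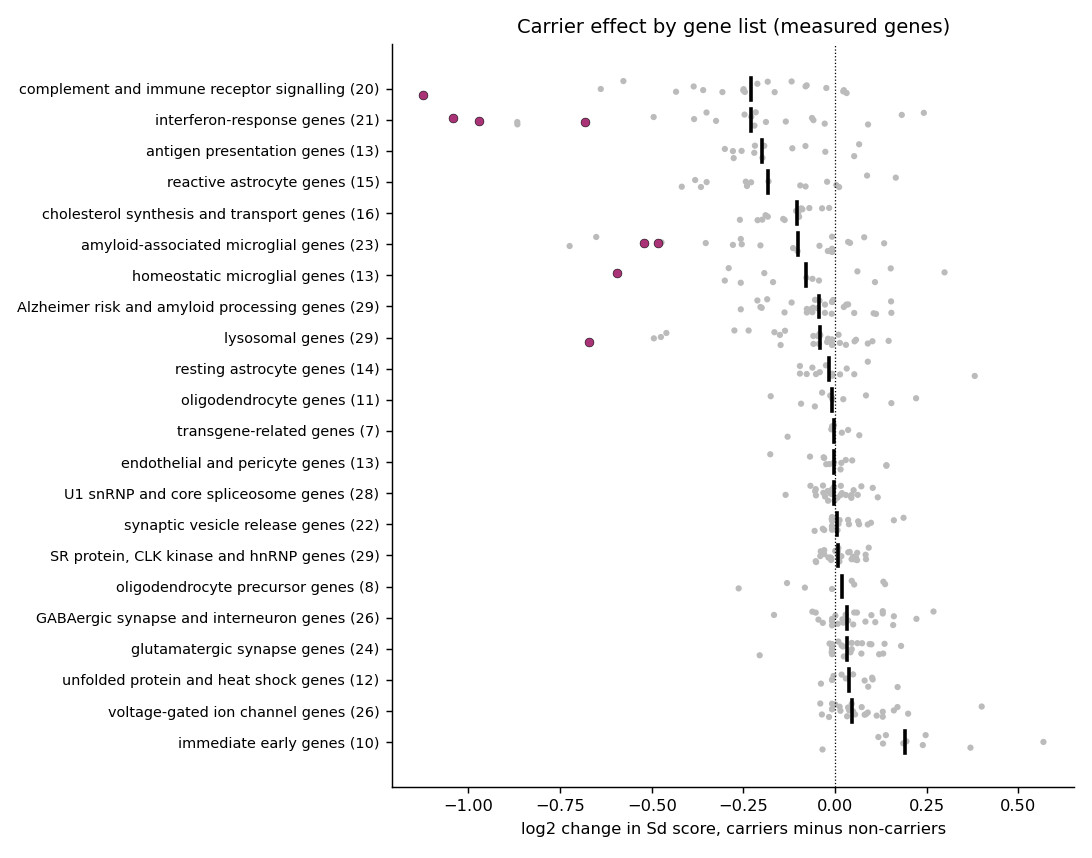
Carrier effect on the Sd score (log2, horizontal axis) of each measured gene in the lists by cell type and function, with purple points for genes that passed the test, a black bar for the list's median and a dotted line for the median of all genes. The purple points lie at the left of the immune and lysosomal lists, the interferon median is -0.23, and some genes are in more than 1 list.

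The intron content of the genes that changed was read from their gene models. GENCODE M21 gave a model for 21 of the 22, and for 14914 of the 15705 genes. The 21 had a median of 12.8 kb of introns, against 20.7 kb in all matched genes and 11.6 kb in those with a mean score of at least 0.02. These are descriptions of the gene models, with no test. They ranged from Cd68, with 0.684 kb in 5 introns, to Iqcj, with 162.795 kb in 3 introns. Rnf213 had the most introns, 66. Chromosome 11 held 6 of the 21 (Lgals3bp, Cxcl16, Rnf213, Cd68, Tcn2 and the predicted antisense gene), against 8.54% of matched genes. Some models overlapped another gene. On the other strand, Cd180 lies with Mast4, Cxcl16 with Zmynd15, Hvcn1 with Tctn1, Parp9 with Dtx3l and Ctsz with Nelfcd. Usp18, Rnf213 and Rasal3 also overlap a gene on the other strand. On the same strand, Iqcj lies with Iqschfp, and Cdt1 also overlaps a gene. Not all overlaps are named here. The library kit keeps strand, but whether the counting used it is not stated in the sources used here. Without strand, reads of partners on the other strand cannot be told apart. Reads of partners on the same strand cannot be told apart by strand in either case. The scores of these genes are uncertain to that extent.

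The same genes were looked up at 12 months in Tau P301S mice, a model in which transgenic mutant human tau forms tangles (6 libraries against 4 of WT). This table is separate, with other animals, age and scaling, so its values are set beside the others and not tested against them. It held 15192 genes, and limma called 0 of them (1408 at an unadjusted p under 0.05). Of the 19 lower genes 17 were in it, 14 of them negative, where 49.4% of all its genes were negative, and 0 passed. Cxcl16 scored 0.012 to 0.098 in Tau P301S and 0.063 to 0.186 in WT, with overlap of the groups (-1.81 ± 0.50, adjusted p = 0.310). Hvcn1 scored 0.012 to 0.03 against 0.039 to 0.043, without overlap (-1.05 ± 0.22, adjusted p = 0.203). The share of all genes without overlap was not counted at 12 months. Rnf213 differed by -0.95, Parp9 by -0.93, Usp18 by -0.53 and Gusb by -0.53. The lower genes without a negative change there were Rasal3 (0.05), Cdt1 (0.05) and Cst3 (0.02), and Cd80 differed by -0.07. Cd68 differed by -0.26 (adjusted p = 0.551), and Hapln3, higher in 5xFAD carriers, by 0.00209. Cd180 had no row in that table and was not analysed there.

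**Figure D5:**
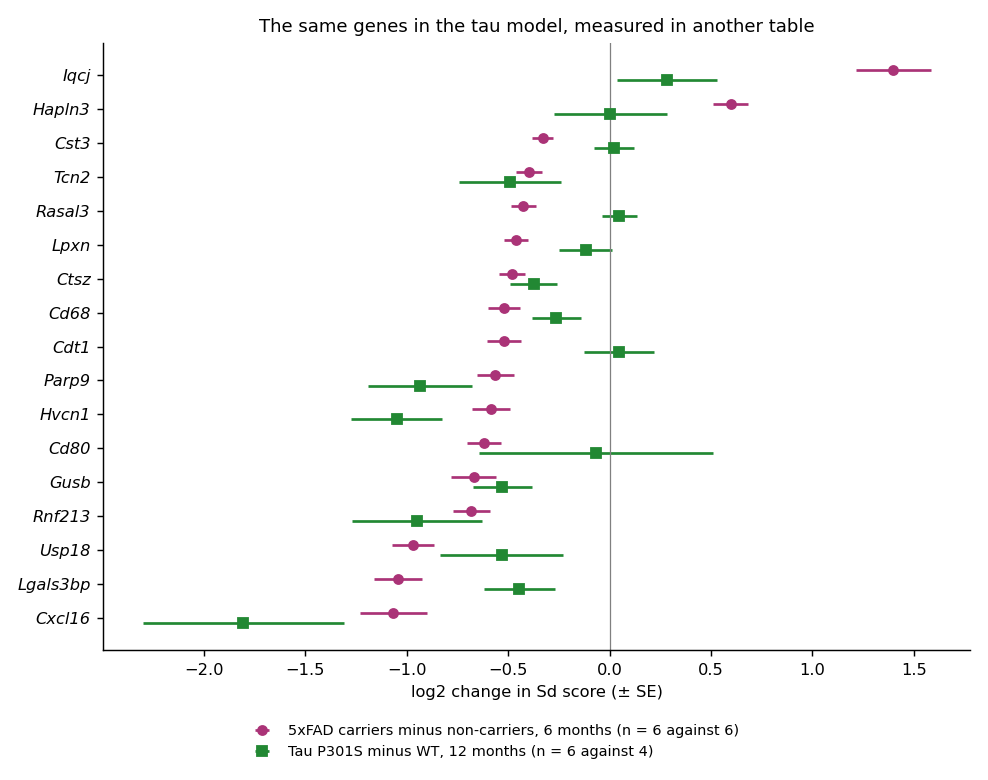
Change in Sd score (log2) of the named genes that passed in 5xFAD carriers, set beside the change of the same gene in Tau P301S against WT at 12 months, with standard errors. Most of the lower genes shown are also below 0 in Tau P301S, with Cxcl16 furthest at -1.81, and none of them passed the test there.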

How the data were processed

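Poly(A)-selected, stranded paired-end libraries of mouse cortex were analysed through the Sd score, a linear ratio for every gene in every library, which the authors deposited with 3 decimals. The submitters' processing notes name CASAVA, STAR, BWA, bedtools 2.16.1 and the mm9 build. The formula of the score, the counter, the annotation and the depth are not given in the sources used here.

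From these, log2(score + 0.002) was computed and each library was centred on its median over all genes. Group terms for 5xFAD and N40K were fitted to all 15705 genes of the 12 libraries with limma 3.58.1 in R 4.3.3 (lmFit, eBayes), and two-sided p-values were Benjamini-Hochberg adjusted over all genes, with a threshold of 0.05. A fit with 1 term per group gave the effect in each N40K background and the interaction. The 12-month table was fitted alone. Scripts were tested on simulated data. Tables were read with pandas 2.3.3 and figures drawn with matplotlib 3.10.9.

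Named genes were up to 8 per direction of largest change among those that passed, had a mean of at least 0.02 and did not overlap between groups, then, with the same minimum mean, up to 3 that passed from each gene list (or the one of smallest p), then transgene-related genes. Predicted genes were counted and not named, and a few other genes counted here are not reported by name. The comparison, its genes and the lists were chosen with earlier results of these data known. Gene models came from GENCODE M21, on another build, so positions are not printed. Across genes, same-numbered libraries did not deviate together: 0 of 18 pairs had a correlation over 0.1 (range -0.191 to 0.0833), so replicate numbers were not used as pairs. Alternatives covered centring, pseudocounts, the filter, the limma settings, the model terms, the replicate block and left-out libraries.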

Additional observations from a re-analysis of the deposited data

Results flagged for a closer look

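Among 90 groups of 6 libraries tested (45 named genes, carriers and non-carriers), 6 held 1 library far from the other 5 on centred values, by Dixon's test at 95%. Chance flags about 1 in 20 groups. Gusb, which passed the test, had 1 carrier at 0.039 (5xFAD replicate 1), with the others at 0.023 to 0.033. The other cases were genes that did not pass. Sox9 had 1 non-carrier at 0.016 (N40K replicate 1) beside 0.023 to 0.03. Cspg4, the proteoglycan NG2 of oligodendrocyte precursors, had 1 carrier at 0.051 (dTg replicate 3) beside 0.028 to 0.033. Snrpf, a core Sm protein of snRNPs, had the same library at 0.081 beside 0.056 to 0.068. Tra2a had 5xFAD replicate 1 at 0.149 beside 0.154 to 0.182, and Snrnp70 had dTg replicate 2 at 0.039 beside 0.042 to 0.045.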

How the results depend on the processing

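The number of genes called, 22, became 6 with libraries not centred (5 of them among the 22), 7 with the replicate block, 11 with 1 term per group, 8 without N40K replicate 1 and dTg replicate 2 together (3 among the 22), 13 with a term for replicate 1 against 2 and 3 (chosen after seeing the data) and 4 to 25 without single libraries (17 of the 25 among the 22). Calls with a mean of at least 0.02, 16 as reported, numbered under these settings 4, 5, 7, 4, 9 and 3 to 17. The cause was not tested. The genes that passed with the block were Lgals3bp, Iqcj, Hapln3, Usp18, Cd180, Cd80 and Lpxn. Those lost included Cxcl16 (adjusted p = 0.0976), Cd68 (0.121), Gusb (0.138), Rnf213 (0.0665), Hvcn1 (0.0976) and Parp9 (0.136). Across genes, same-numbered libraries did not deviate together (1 of 12 correlated best with its own number), although Tsix followed the number. What the number marks is not given in the sources used. The other settings gave 16 to 22 calls, within 1.5 times of 22. Contrasts with 0 calls gained a few. With libraries not centred, 5xFAD minus WT called 3 (Atp2b2, Kcnab1, Cst3), dTg minus N40K 3 (Synpr, Prex1, Cst3), the interaction 3 and Tau P301S minus WT 1. With a pseudocount of 0.001, dTg minus N40K, the interaction and Tau P301S minus WT called 1 each, and with the 0.02 filter the last called 3. Without single libraries the range was 0 to 1 for 5xFAD minus WT (1 without 5xFAD replicate 1), 0 to 2 for dTg minus N40K (2 without 5xFAD replicate 1 or 2) and 0 to 1 for Tau P301S minus WT (1 without Tau P301S replicate 3). The difference of library medians, 0.01, was -0.00335 over genes with a mean of at least 0.02 and -0.0159 to 0.0385 without single libraries.

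Genes near 0 changed sign. With libraries not centred, Snrnp70 gave 0.00536. Without N40K replicate 1 and dTg replicate 2 together, Prnp gave -0.0175, Snrnp70 0.00928, Psen2 0.0062 and Tsix -0.498. Without single libraries the ranges were -0.0376 to 0.0108 for App, -0.0337 to 0.0355 for Snrnp70, -0.013 to 0.0887 for Prnp, -0.0646 to 0.0368 for Psen2, -0.391 to 0.452 for Tsix, -0.0303 to 0.0567 for Thy1 and -0.00391 to 0.0481 for Lhx6. Depth is unknown, and scores below about 0.02 rest on few steps of 0.001.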

Other observations

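A further 39 of the 15705 genes had centred scores that did not overlap between carriers and non-carriers and did not pass the test, 25 lower and 14 higher. With those that passed, 59 genes (0.376%) did not overlap. The 39 were picked for that pattern, so their values are a description. Among the lower ones were genes known from immune cells, whose share was not counted. Wdfy4, which antigen-presenting cells need for cross-presentation, differed by -0.70 (limma adjusted p = 0.058) and Tnfaip8l2, a brake on innate immune signalling, by -1.40 (0.135). Slc2a9, a urate transporter, differed by -0.70 (0.058) and Mki67, the proliferation marker, by -0.81 (0.271). On the higher side were Kntc1, a kinetochore gene, at 0.77 (0.059), Cask, a synaptic scaffold kinase, at 0.64, and Prdm16, a zinc-finger transcription regulator, at 0.40.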
